A study of Mus musculus with 18 samples.

Results

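Tnf, the gene of the inflammatory cytokine tumour necrosis factor, was followed in RAW264.7, a line of mouse cells that resemble macrophages, as 1 gene of the 14002 listed in any library. It was chosen by its read levels, converted shares and footprint to input ratios, which were already known, so those values are given as a description, without a test. Cells were left without label (0 min) or given 200 µM 4-thiouridine (4sU), which cells build into RNA in place of uridine. Experiment 1 held 6 lysates (0, 20, 40, 60, 90 and 120 min of 4sU) and experiment 2 held 3 (20, 30 and 40 min). Each lysate gave 1 library of alkali-fragmented cytoplasmic RNA (input) and 1 of RNase I footprints from monosomes, 18 libraries in all. No other stimulus or genotype is named in the labels. A chemical step turned 4sU into a base read as C, so that a T-to-C conversion in a read marks RNA made since labelling began. Reads with at least 1 conversion are called new and reads with 0 conversions old, but old reads also include new RNA in which no T was converted.

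Macrophages keep a supply of unstable Tnf mRNA. AU-rich elements in its 3′ untranslated region (3′ UTR), built on the pentamer ATTTA, are bound by proteins such as tristetraprolin (Zfp36) that bring decay and hold back translation, and the p38 kinase pathway through MK2 relieves both. The protein is made as a membrane precursor, is shed by the protease Adam17 and acts through the receptors Tnfrsf1a and Tnfrsf1b, which lead to NF-kB.

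Tnf (ENSMUSG00000024401) lies on the minus strand of chromosome 17, from 35199381 to 35202007 in GRCm38 (mm10), between Lta, 1158 bases away, and Ltb, 3061 bases away, and no other annotated gene overlaps it. It has 4 exons. The coding region of 708 bases holds 20.5% T and the 3′ UTR of 764 bases holds 29.8% T. Since only a T can show a conversion, the sequences below mark T in capitals in 3 stretches of 30 bases (the coding stretches with the fewest and the most T, both in exon 1, and the 3′ UTR stretch with the most ATTTA), all 5′ to 3′ on the mRNA strand of GRCm38.
Coding, fewest T (2), chr17:35201782-35201811: ggaacTggcagaagaggcacTcccccaaaa
Coding, most T (13), chr17:35201721-35201750: cTaTgTcTcagccTcTTcTcaTTccTgcTT
AU-rich element (22 T, 5 ATTTA), chr17:35199678-35199707: TTaTTTaTTaTTTaTTTaTTaTTTaTTTaT
The whole 3′ UTR holds 8 ATTTA, searched on the mRNA strand with overlaps counted, and 5 copies of the longer TTATTTATT, which themselves contain ATTTA. Of 11987 genes, 50 (0.417%) have as many ATTTA in the first 764 bases of the 3′ UTR, and 516 (4.30%) hold TTATTTATT there.

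The libraries held 6230562 to 87536081 reads, with the larger ones in experiment 2. Levels are given as CPM, the reads of a gene scaled to the total reads of its library. Of 15 macrophage markers, 14 averaged over 1 CPM, and Mrc1, the mannose receptor, did not. Their summed level was 7370 to 9231 CPM in input and 10598 to 14153 in footprints. Of 31 markers of lymphoid, epithelial, endothelial, stromal, muscle and other cells, 11 were listed and 0 averaged over 1, with sums of 0.586 to 2.81 in input and 1.60 to 3.41 in footprints. Tnf itself was counted 227 to 3635 times per library, which sets the precision of its shares.

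At the later times of 4sU, Tnf reads were fewer in input and more in footprints. In experiment 1 the input level was 58.3, 66.1, 56.3, 45.0, 31.6 and 39.8 CPM at 0, 20, 40, 60, 90 and 120 min, and in experiment 2 it was 75.5, 73.9 and 65.8 at 20, 30 and 40 min. The 3 lowest input libraries were those of 60, 90 and 120 min. In footprints the level was 16.2, 22.0, 34.6, 43.8, 45.1 and 50.4 CPM in experiment 1 and 27.5, 30.1 and 47.2 in experiment 2. The unlabelled footprint library was the lowest of 9 and that of 120 min the highest. The times with a library from each experiment gave 70.8 ± 6.67 at 20 min and 61.0 ± 6.71 at 40 min in input (SD, n = 2), and 24.8 ± 3.87 and 40.9 ± 8.93 in footprints. In input the 30 min value lay within the range of the 20 min pair and the 0 min value within that of the 40 min pair, while 60, 90 and 120 min lay below both pairs. In footprints the 60 and 90 min values lay within the range of the 40 min pair, and 120 min lay above it by less than its SD. In bulk RNA a lower level in each cell and fewer cells that express Tnf cannot be told apart.

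**Figure D1:**
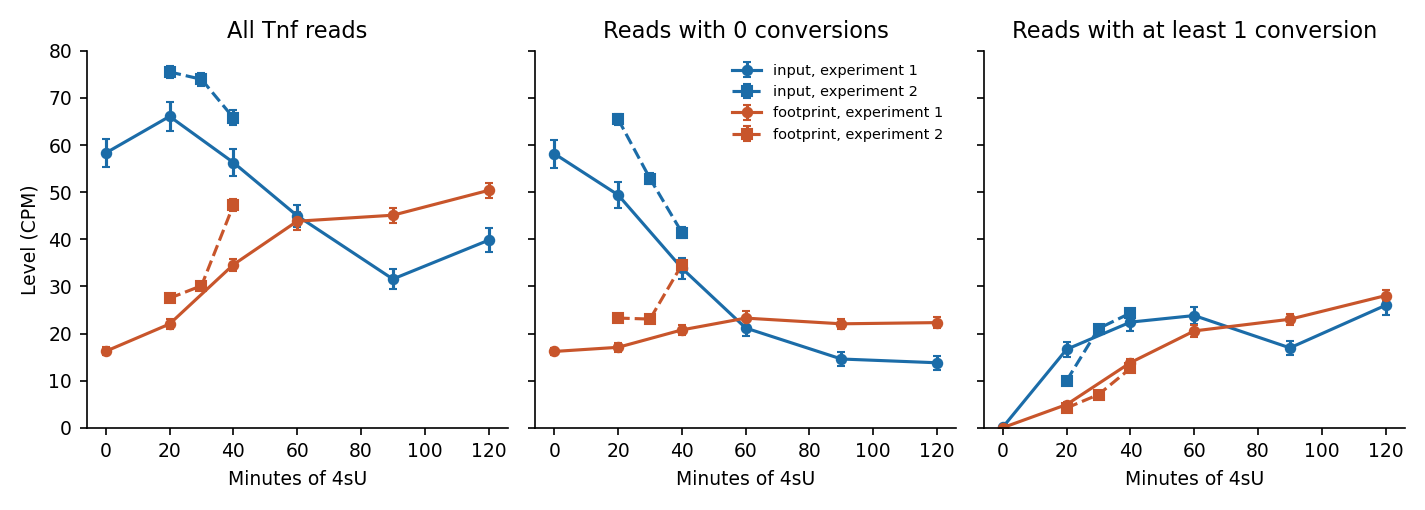
Tnf level in CPM (y) against minutes of 4sU (x) in input (blue) and footprint (orange) libraries of experiment 1 (circles, solid) and experiment 2 (squares, dashed), for all reads, reads with 0 conversions and reads with at least 1; bars are 1 counting SE of each library. Old input reads went from 58.2 to 13.8 in experiment 1, where old footprint reads lay between 16.2 and 23.3; in experiment 2 old input reads went from 65.5 to 41.4 and old footprint reads lay between 23.1 and 34.6.

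Split by conversion, old Tnf reads were fewer at each later time in input, and not in footprints. In input, old Tnf reads were at 58.2, 49.4, 33.9, 21.2, 14.6 and 13.8 CPM at 0, 20, 40, 60, 90 and 120 min of experiment 1, 4.21-fold lower at the last than at the first, and at 65.5, 52.9 and 41.4 at 20, 30 and 40 min of experiment 2. Each library was lower than the one before it within its experiment. In footprints, old reads were at 16.2, 17.1, 20.8, 23.3, 22.1 and 22.3 CPM in experiment 1 and at 23.3, 23.1 and 34.6 in experiment 2. No labelled footprint library held fewer old Tnf reads by CPM than the unlabelled one.

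New Tnf reads had a higher CPM in input than in footprints in the labelled lysates up to 60 min. In input they were at 16.7, 22.4, 23.8, 16.97 and 26.0 CPM from 20 to 120 min of experiment 1 and at 10.0, 21.1 and 24.4 in experiment 2. In footprints they were at 4.95, 13.8, 20.6, 23.0 and 28.1 in experiment 1 and at 4.22, 7.07 and 12.6 in experiment 2. The 90 and 120 min lysates were those in which new footprint reads exceeded new input reads. The unlabelled libraries held 1 converted Tnf read each, 0.152 CPM in input and 0.0429 in footprints.

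Fits of the read counts over hours of 4sU, with TMM scaling in edgeR, gave Tnf a slope of -0.47 log2 per hour in input (SE 0.13, 9 libraries) and 0.82 in footprints (SE 0.16, 9 libraries), beside medians of -0.02 and 0.01 over all genes tested. The footprint slope was the 15th highest (rank 15) of 9664 genes. Without the 120 min lysate of experiment 1 the Tnf slopes were -0.72 and 1.07. Over all genes, edgeR's quasi-likelihood test called 44 of 9269 input slopes higher (0.475%) and 603 lower (6.51%), and of footprint slopes 689 higher (7.13%) and 1373 lower (14.2%). With experiment as a replicate block the input calls were 384 higher and 1156 lower. Without the 120 min lysate they were 0 and 0 in input (with 953 at an unadjusted p under 0.05) and 3 and 64 in footprints. Time and experiment overlap in part, since experiment 2 ended at 40 min.

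Tnf was among the most heavily labelled genes in every labelled library. In input of experiment 1 the converted share was 25.2% (95% Wilson interval 21.4 to 29.4) at 20 min, 39.8% at 40, 52.9% at 60, 53.7% at 90 and 65.3% (59.2 to 71.0) at 120 min. In input of experiment 2 it was 13.3%, 28.5% and 37.0% at 20, 30 and 40 min. In footprints it was 22.4% (18.8 to 26.6), 40.0%, 46.9%, 51.1% and 55.7% (52.5 to 58.8) in experiment 1, and 15.3%, 23.5% and 26.7% in experiment 2. These intervals cover counting error only, and the reads carry no molecular identifiers that the files show. Shares were higher at each later time within an experiment and material, but not all steps exceeded counting error. In experiment 1, intervals of neighbouring times overlapped from 60 to 120 min in input and from 40 to 120 min in footprints. In experiment 2 those of 30 and 40 min overlapped in footprints. At 20 and 40 min the shares of experiment 2 were below those of experiment 1. In the unlabelled libraries the share was 0.261% in input and 0.264% in footprints (1 read of 383 and 1 of 379).

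**Figure D2:**
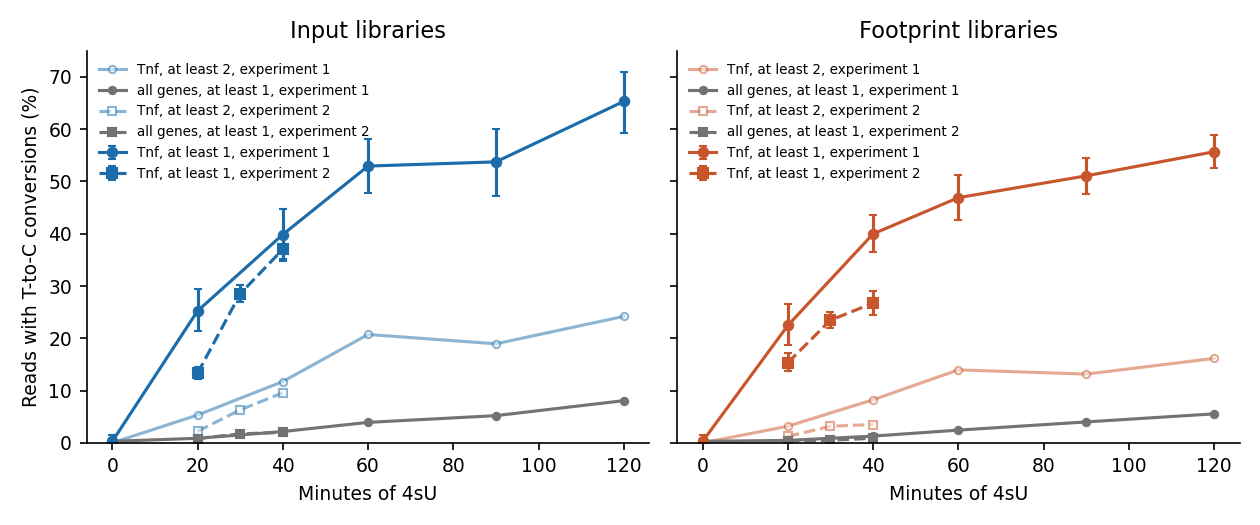
Share of reads with T-to-C conversions (y, percent) against minutes of 4sU (x) in input (left) and footprints (right): Tnf with at least 1 conversion (filled, with 95% Wilson intervals), Tnf with at least 2 (open) and the sum of all genes with at least 1 (grey), by experiment (circles and solid 1, squares and dashed 2). At 120 min Tnf reached 65.3% in input and 55.7% in footprints, beside 8.07% and 5.54% for all genes.

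The same libraries as a whole held 0.813% to 8.07% converted reads in labelled input and 0.313% to 5.54% in labelled footprints. Among genes with at least 50 reads in a library, the converted share of Tnf ranked between 2 and 36 in labelled input libraries and between 1 and 56 in labelled footprint libraries. In experiment 1 its ranks from 20 to 120 min were 2, 2, 7, 15 and 36 in input and 1, 2, 9, 22 and 56 in footprints. In experiment 2 they were 11, 4 and 3 at 20, 30 and 40 min in input and 4, 5 and 4 in footprints, so the order over time differed between the experiments. Over the 8 labelled input libraries its log2 odds of conversion lay 4.77 above the library median (SE 0.18), rank 2 of 7045 genes.

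Reads with at least 2 conversions gave the stricter reading. In input they were 5.31%, 11.7%, 20.7%, 18.9% and 24.2% of Tnf reads from 20 to 120 min of experiment 1 and 2.20%, 6.30% and 9.57% in experiment 2. In footprints they were 3.17%, 8.24%, 13.95%, 13.1% and 16.2% in experiment 1 and 1.22%, 3.18% and 3.496% in experiment 2. Footprints were below input in 8 of 8 labelled lysates by this measure. The unlabelled libraries held 0 such reads of 383 and of 379, which allows shares of up to 0.783% and 0.792%. Among converted Tnf reads, those with at least 2 conversions made up 16.6% to 39.2% in labelled input and 7.94% to 29.8% in footprints. Among converted reads of all genes they made up 7.80% to 32.8% and 2.64% to 24.9%, also lower in footprints in each labelled lysate. The lower share in footprints is thus not particular to Tnf. A mixture model with the conversion rate of all genes put the labelled fraction of Tnf at its upper limit of 100% in 14 of 16 labelled libraries. The rate fitted to Tnf alone was above the rate of all genes in 15 of 16, so no labelled fraction or half-life is drawn from it.

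The footprint to input ratio of Tnf, taken as CPM in footprints over CPM in input of the same lysate, was higher at later times in both experiments. It was 0.279 (95% counting interval 0.242 to 0.321) at 0 min of experiment 1, then 0.333, 0.615, 0.974 and 1.43, and 1.27 (1.10 to 1.46) at 120 min. In experiment 2 it was 0.364, 0.408 and 0.718 at 20, 30 and 40 min. The last ratio was 4.54 times the first in experiment 1 and 1.97 times the first in experiment 2 (4.99 and 2.03 times with TMM scaling). The 2 lysates of 20 min gave 0.349 ± 0.0218 and the 2 of 40 min gave 0.667 ± 0.0729 (SD, n = 2), ranges that did not overlap. The median gene's log2 ratio was between -0.30 and -0.19 in all 9 lysates (mean -0.24, against -0.04 in the TMM fit), and Tnf moved from percentile 5.04 of the genes at 0 min to percentile 84.2 at 90 min and 78.6 at 120 min. The scaling decides on which side of 1 the 60 min ratio lies, 0.974 by CPM and 1.10 by TMM.

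**Figure D3:**
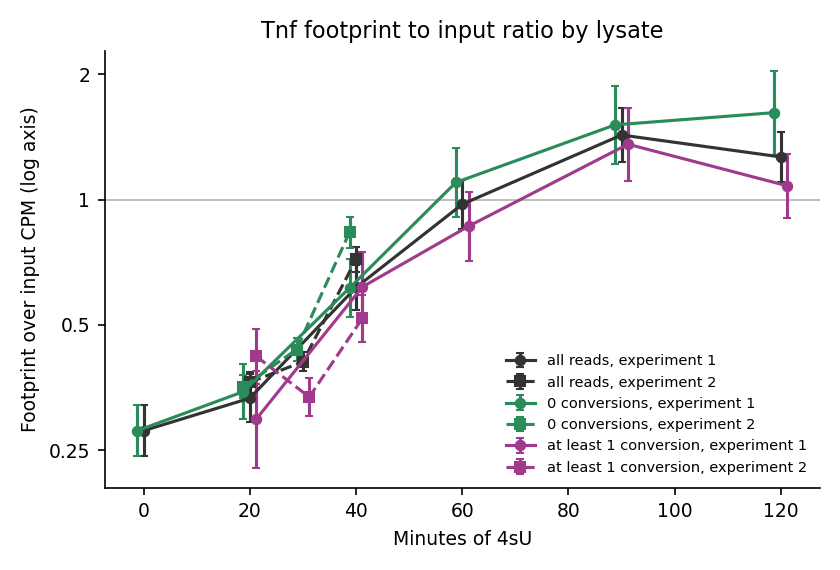
Footprint over input ratio of Tnf CPM (y, log axis) against minutes of 4sU (x) for all reads (black), reads with 0 conversions (green) and reads with at least 1 (purple), by experiment (circles and solid 1, squares and dashed 2); bars are 95% counting intervals and colours are offset sideways. All 3 ratios were lowest at the shortest times of experiment 1 and above 1 at 90 and 120 min.

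The ratio of old reads was highest at the last time of each experiment, and that of new reads at 90 min in experiment 1 and at 40 min in experiment 2. The ratio of old reads was 0.279, 0.346, 0.614, 1.10, 1.51 and 1.62 in experiment 1 and 0.356, 0.436 and 0.835 in experiment 2. The ratio of new reads was 0.297, 0.617, 0.863, 1.36 and 1.08 from 20 to 120 min of experiment 1 and 0.420, 0.336 and 0.518 in experiment 2. From first to last the old ratio was 5.81 times higher in experiment 1 and 2.35 times in experiment 2, and the new ratio, whose first time is 20 min, 3.64 and 1.23 times. The log2 of the new over the old ratio went from 0.24 at 20 min to -0.69 at 40 min of experiment 2, and lay between -0.58 and 0.01 in the labelled lysates of experiment 1. With at least 2 conversions the ratio was 0.199, 0.432, 0.656, 0.992 and 0.845 in experiment 1 and 0.201, 0.206 and 0.262 in experiment 2, below the ratio of old reads in 8 of 8 lysates. As given above, converted reads of all genes also held at least 2 conversions less often in footprints in each labelled lysate. Old reads also include new RNA in which no T was converted. These ratios thus do not measure the density of new and old Tnf mRNA separately.

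In the fit of material, hours and their product over 18 libraries, a comparison added once results were known, the fitted change in the density of Tnf was 1.30 log2 per hour (SE 0.22), rank 16 of 10110 genes and beside a median of 0.01. Without the 120 min lysate of experiment 1 it was 1.76. Averaged over time, its footprint against input density was -0.52 (SE 0.23), beside a median of -0.04. Across all genes, edgeR's quasi-likelihood test called 0 density changes higher (0.0%) and 0 lower (0.0%), with 241 at an unadjusted p under 0.05, and DESeq2's Wald test called 3 higher and 6 lower. Calls were also made with experiment as a replicate block (1 higher, 2 lower), with lysate as a replicate block (1 and 0), in experiment 1 alone (1 and 2), without its 0 min lysate (2 and 4) and without the 40 min lysate of experiment 2 (1 and 0). Tnf is counted among the higher genes in each of those 6 settings of the 16 run. It was chosen for this value, so the count supports nothing and no p is given. Rps2 and Rpsa, ribosomal protein genes named after their values were seen, are among the lower genes in 4 of the 16 settings and the only ones in 2 of them (experiment as a replicate block, and experiment 1 alone), at -0.82 (SE 0.15) and -1.01 (SE 0.19) per hour in edgeR's fit of all libraries. Ribosomal protein genes have near-identical pseudogenes, so their reads are uncertain.

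In 7 of 8 labelled lysates, Tnf footprints carried conversions at odds nearer to those of input than the median gene did. Its log2 odds of conversion, footprint minus input, were -0.22, 0.01, -0.35, -0.15 and -0.58 from 20 to 120 min of experiment 1 and 0.24, -0.38 and -0.69 in experiment 2. The median gene stood at -0.84, -0.78, -0.63, -0.24 and -0.46, and at -1.07, -1.64 and -1.04. Tnf was above the median gene in 7 of 8 lysates, and below it at 120 min. Its percentile among genes was 67.6 to 92.0 at 20 to 40 min and 41.3 to 64.0 at 60 to 120 min. In the lysate without label, Tnf stood at 0.02, the median gene at -0.36 and the reads of all genes summed at 0.045. The Tnf value there rests on 1 converted read in each library (counting SE of the log2 ratio of new reads 2.04). It therefore cannot show whether Tnf differed from the median gene without label. The cause of the median gene's value there was not tested. Over the labelled lysates the mean of Tnf was -0.26 ± 0.30 (SD, n = 8), and that of the median gene -0.84 ± 0.43. With at least 2 conversions the mean of Tnf was -0.85 ± 0.31. The median gene's values above are for at least 1 conversion, and none is given for at least 2, so the 2 are not compared at that cut. Per T position, the log2 conversion rate of Tnf differed between footprints and input by -0.10 ± 0.22 (SD, n = 8), from -0.49 to 0.19.

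**Figure D4:**
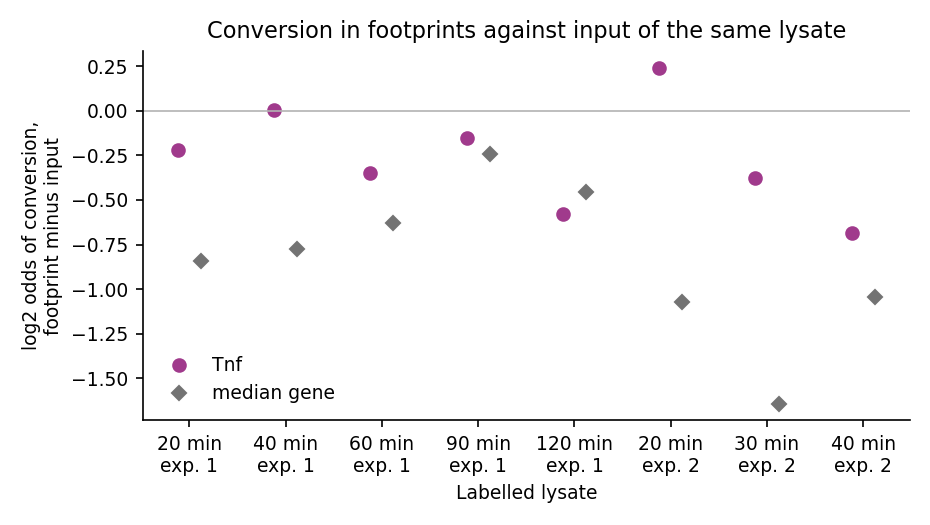
Log2 odds of a read being converted, footprint minus input of the same lysate (y), for Tnf (purple circles) and the median gene (grey diamonds) in the 8 labelled lysates (x, time and experiment). Tnf lay between -0.69 and 0.24, above the median gene in 7 of 8 lysates.

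T content per read was a measure that the choice of Tnf did not use. Tnf reads held on average 6.02, 6.29, 5.65, 5.68, 5.90 and 5.91 T in input of experiment 1 and 6.11, 5.84 and 5.80 in experiment 2. Its footprints held 5.64, 5.07, 5.06, 5.32, 4.98 and 4.77 T in experiment 1 and 5.73, 5.46 and 5.20 in experiment 2. Footprints were below input in 9 of 9 lysates. After subtraction of the median gene's difference, the mean was -0.69 T per read ± 0.25 (SD, n = 9), with an exact two-sided sign-flip permutation p = 0.0039, the smallest that 9 lysates allow. In experiment 1 alone it was -0.73 (exact sign-flip p = 0.0312, the smallest that 6 allow), and over reads with 0 conversions it was -0.58 (exact sign-flip p = 0.0039). These p-values measure how steady the difference was across lysates of 1 gene, not how rare it is among genes. By its difference Tnf stood at percentile 1.65 to 13.1 of the genes (mean 5.41 over 9 lysates), so other genes were lower still. A read with fewer T has fewer places to show a conversion, and the part of this in the lower share of reads with at least 2 conversions in footprints was not tested beyond the rates per T given above.

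**Figure D5:**
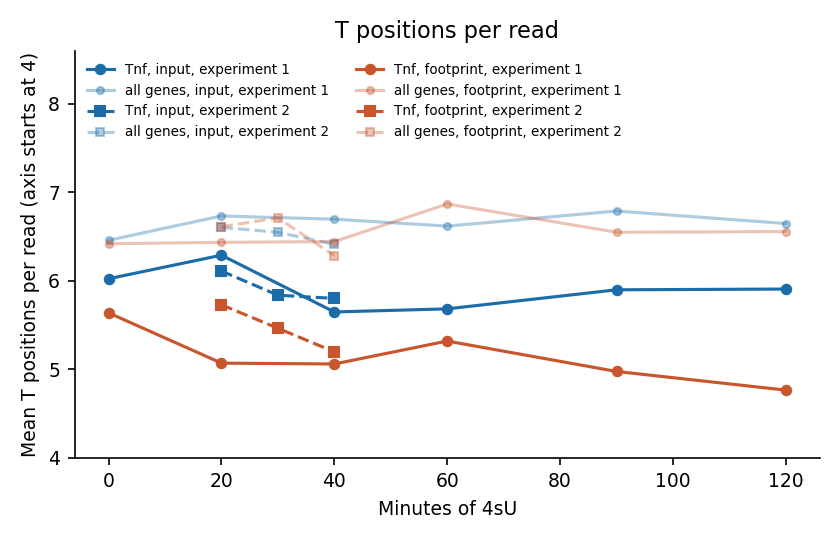
Mean number of T positions per read (y, axis starting at 4) against minutes of 4sU (x) for Tnf (strong colours) and all genes summed (pale) in input (blue) and footprints (orange), by experiment (circles and solid 1, squares and dashed 2). Tnf footprints lay between 4.77 and 5.73 and Tnf input between 5.65 and 6.29.

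The files give no position of a read within the mRNA, so the T counts were set against windows of the transcript. Windows of 30 bases hold 6.08 T on average in the coding region and 8.99 in the 3′ UTR. Windows of 35 bases, the longest fragment kept, hold up to 15 T in the coding region, and 10.8% of those in the 3′ UTR hold more. The files have columns for at most 20 T, so the AU-rich stretch printed above could not be seen in full, but 5.07% of the 3′ UTR windows hold 16 to 20 T. Of 19742 Tnf reads, 0 had over 15 T, which allows a share of up to 0.0152%, and of the reads of all genes 0.140% did. For shorter windows the coding maximum is lower: 17 Tnf reads (14 in input and 3 in footprints) exceeded the 13 T of 30-base windows and 209 the 11 T of 25-base windows. The length of each read is not used here, so these T counts do not place the reads in the coding region or the 3′ UTR.

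The genes whose conversion pattern lay nearest to that of Tnf over the 16 labelled libraries, by the root mean square difference in log2 odds among 7036 candidates, were Ier3 (0.41), Fos (0.60), Dusp2 (0.65), Zfp36 (0.66), Rgs1 (0.67), Txnip (0.74), Lcmt2 (0.80) and mt-Nd2 (0.83). Ier3, Fos, Dusp2 and Zfp36 are early-response genes, Rgs1 regulates G protein signalling, Txnip binds thioredoxin and mt-Nd2 is a mitochondrially encoded subunit of complex I. Lcmt2 overlaps Adal, so its reads are uncertain. At 120 min the converted share in input was 74.6% for Lcmt2 and 71.6% for Txnip, both above the 65.3% of Tnf, and 65.2% for Dusp2. It was lower for Ier3 (58.2%), mt-Nd2 (53.2%), Rgs1 (47.5%), Zfp36 (46.8%) and Fos (41.7%). Each share is from 1 library and is given without an interval. Dusp2, Rgs1, Lcmt2 and Ier3 averaged only 204, 219, 376 and 377 reads in a library, so their shares and ratios are imprecise. The footprint to input ratio at 120 min over that at 0 min was 1.74 for Ier3, 1.13 for Fos, 1.31 for Dusp2, 0.840 for Zfp36, 0.433 for Rgs1, 0.878 for Txnip, 0.488 for Lcmt2 and 2.06 for mt-Nd2. All 8 were below the 4.54 of Tnf, which was chosen with its ratios known, so this order supports nothing.

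Other genes of the pathway are given from lists chosen with earlier results known. For labelling in input, limma called 35.2% of 7045 genes higher than the library median and 35.2% lower (Benjamini-Hochberg adjusted p under 0.05). Of the TNF ligands and receptors, 3 of 6 tested were higher and 0 lower (median 0.73, beside -0.03 over all genes): Tnfsf9, the ligand 4-1BBL, at 3.403 (SE 0.23, limma adjusted p = 1.04e-07), the TWEAK receptor Tnfrsf12a at 2.69 and Ltb, lymphotoxin beta, at 0.97. Tnfrsf1a, the main TNF receptor, stood at 0.50 (limma adjusted p = 0.146). Of the NF-kB subunits and feedback inhibitors, 7 of 12 were higher and 0 lower (median 0.68), led by Nfkbid at 4.14, Nfkbiz at 4.51, Tnfaip3 at 4.41 and Nfkbia at 3.70. Of the regulators of AU-rich mRNAs, 11 of 24 were higher and 7 lower (median 0.21), with the phosphatase Dusp2 at 4.56, Zfp36 at 4.24 and the nuclease Zc3h12a at 3.11.

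Of the other cytokines, 5 of 8 were higher and 2 lower (median 2.17), with oncostatin M (Osm) at 3.99 and the chemokines Ccl3 at 3.25 and Ccl4 at 3.18. Of the other inflammatory effectors, 13 of 15 were higher and 1 lower (median 1.67), among them Ier3 at 4.60, the receptor Tlr2 at 2.65 and the feedback inhibitor Socs3 at 3.97. In the receptor signalling complex 12 of 21 were higher and 3 lower (median 0.64), and in the sheddase group 2 of 6 were higher and 3 lower (median -0.47). Tnf, at 4.77 and chosen with its labelling known, was above every member of these lists that was tested.

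For conversion in footprints against input, edgeR called 12 of 8276 genes higher (0.145%) and 4913 lower (59.4%), with a median of -0.79. Tnf was fitted at -0.26 (SE 0.24), rank 793. Of 107 other list members tested, 0 were higher and 58 lower (median -0.71), with 67 at an unadjusted p under 0.05 and the same counts of calls, 0 and 58, by limma with lysate as a replicate block. The sheddase group was lower in 6 of 7 cases, with the TNF-releasing protease Adam17 at -1.38 (SE 0.24, edgeR adjusted p = 2.06e-07) and Adam10 at -1.07. Adam17 overlaps Iah1, and whether the counts use strand is not stated, so its reads are uncertain. The regulators of AU-rich mRNAs were lower in 15 of 27, with the AU-binding protein Hnrnpd at -1.78, and the receptor signalling complex in 15 of 26, with the kinase Tbk1 at -1.34. The calls of Tbk1 and Ccl9 were lost with lysate as a replicate block in limma (adjusted p = 0.0579 and 0.0504), and that of Ccl9 in experiment 1 alone (edgeR adjusted p = 0.333). Other cytokines were lower in 1 of 8 (Ccl9 at -0.65), ligands and receptors in 3 of 7, NF-kB genes in 7 of 15 and other effectors in 11 of 17.

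For footprint against input density, edgeR called 3618 of 10110 genes higher (35.8%) and 4081 lower (40.4%), and 45 of 119 list members higher and 42 lower (median 0.05). Of the ligands and receptors, 2 of 12 were higher and 3 lower (median 0.07). The lymphotoxin beta receptor Ltbr stood at -2.37 (SE 0.11, edgeR adjusted p = 5.05e-11), Tnfrsf11a, the receptor RANK, at -0.82, Ltb at -0.27 (-0.20 without the 120 min lysate, edgeR adjusted p = 0.0569, not passing), Tnfsf9 at 0.84 and Tnfrsf26 at 0.58. Tnfrsf1a at 0.02 and Tnfrsf1b at 0.23 did not pass. In the receptor signalling complex 6 of 26 were higher and 16 lower (median -0.33), and of the AU-rich regulators 13 of 27 were higher and 7 lower (median 0.40).

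Over hours of 4sU, 7 of 113 list members rose in footprints and 21 fell, and in input 0 of 104 rose and 6 fell by edgeR (33 at an unadjusted p under 0.05, and 4 and 18 by DESeq2's Wald test). With experiment as a replicate block the input counts were 5 and 18. Without the 120 min lysate they were 0 and 0 in input (12 at an unadjusted p under 0.05) and 0 and 2 in footprints. Over all genes tested, 7.13% were higher and 14.2% lower in footprints and 0.475% and 6.51% in input, so the shares of the lists lay near the background. Tnfsf9 fell by 0.59 log2 per hour in input and by 0.51 in footprints (edgeR adjusted p = 0.0397 and 0.0042). The input call was lost without the low-count filter (edgeR adjusted p = 0.055), in experiment 1 alone (0.0612) and without any 1 of 7 lysates (0.0557 to 0.333; all but the 0 and 40 min lysates of experiment 1). The apoptosis inhibitors Birc2 and Birc3 fell by 0.97 and 0.88 in footprints. Of the NF-kB genes, Nfkbid and Nfkbiz rose by 0.50 and 0.65 in footprints. Without the 120 min lysate Birc2 and Nfkbid did not pass (edgeR adjusted p = 0.0957 and 0.248), and Nfkbiz did not pass without the low-count filter or without any 1 of 5 lysates (0.0503 to 0.13; the 0, 20, 90 and 120 min lysates of experiment 1 and the 30 min lysate of experiment 2). Of 119 list members, edgeR called 0 changes of density per hour in either direction, with 3 at an unadjusted p under 0.05, and DESeq2's Wald test called 0 as well. The median was 0.05 per hour, beside the 1.30 of Tnf.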

How the data were processed

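The deposited files hold the authors' raw counts of reads per gene, split by T positions in the read (0 to 20) and T-to-C conversions (0 to 3). This meaning was read from the column names and values. The submitters' processing notes name Bowtie 0.12.8 and the build mm10. No source used here names the counting program, the annotation or the region counted. Per the labels' protocols, fragments of 25 to 35 bases were kept and a 4sU spike-in was added, which was not used here.

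From these counts, CPM, shares, ratios and log odds (pseudocount 0.5) were computed for Tnf, with Wilson intervals. All genes were fitted with edgeR 4.0.16 (quasi-likelihood test, TMM, filterByExpr) and limma 3.58.1 (relative labelling), in R 4.3.3, two-sided, and called at a Benjamini-Hochberg adjusted p under 0.05. Fits of labelling and conversion required 50 reads on average in a library and 50 converted reads in total. DESeq2 1.42.0, size factors, filters, blocks, single experiments and left-out lysates were alternatives. Sequences and annotation came from GENCODE M21 on GRCm38.

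Tnf and the lists were chosen with earlier results of these data known. Named genes are Tnf, the 8 nearest in conversion pattern, members of the ligand and receptor list, and up to 4 called members of each other list with the smallest adjusted p. Not all that qualify are named. On simulated data with changes of 1.5 log2 (per hour for slopes and change of density), the fits recovered 96.0% (change of density) to 100.0% (density and both slopes) of changed genes. The simulation drew changed genes from well-counted ones, with the same spread for every gene and no lysate or experiment effect. It checks that the fits run as meant and does not give their power in these data, where 0 of 10110 changes of density were called.

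Input and footprints of 1 lysate are paired by the labels' protocols. Their deviations from the material means had correlations of 0.132 to 0.733 over 9396 genes, and for 4 of 9 the own partner gave the highest. The labels do not say whether lysates were separate cultures, so p-values measure the spread between these lysates only.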

Additional observations from a re-analysis of the deposited data

How the results depend on the processing

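Tnf kept its direction in every fit under each alternative run. Its slopes, density and change of density moved by less than their error except without the 120 min lysate of experiment 1. The leave-one-out ranges of Tnf were -0.72 to -0.36 log2 per hour for input, 0.67 to 1.07 for footprints and 1.23 to 1.76 for the change of density. Its relative labelling was 4.55 with at least 2 conversions, 4.57 with a pseudocount of 2 and 5.08 with background subtracted. Its conversion in footprints against input was -0.85 with at least 2 conversions, both in the fit and as the mean of the lysates. T positions per read stayed below 0 in every alternative, and were -0.73 to -0.63 with a lysate left out. The cause of these moves was not tested.

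Leaving out a lysate changed the counts of slopes most. Input slopes ranged from 0 to 110 genes higher and 0 to 728 lower (0 to 1 and 0 to 16 list members), and footprint slopes from 3 to 1078 higher and 64 to 1524 lower (0 to 10 and 2 to 26 list members). Changes of density ranged from 0 to 2 higher and 0 to 4 lower, and conversion in footprints was higher in 7 to 13 genes. Without the 90 min lysate the input slopes were 1 higher and 34 lower. Without a low-count filter 26 input slopes and 271 footprint slopes were higher, with 3 list members among the latter. DESeq2's Wald test called 338 input slopes higher and 971 lower (4 and 18 list members), and 3 changes of density higher and 6 lower.

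With experiment as a replicate block, input slopes were 384 higher and 1156 lower (5 and 18 list members), and changes of density 1 higher and 2 lower. With lysate as a replicate block 1 change of density was higher. The block moved no other count of calls by more than 1.5 times. In experiment 1 alone, changes of density were 1 higher and 2 lower, and conversion in footprints was 30 higher and 1991 lower (22 list members). With at least 2 conversions, where the filter left 2418 and 4125 genes to test, relative labelling was 848 higher and 872 lower (24 and 8 list members), and conversion in footprints by edgeR 0 higher and 2288 lower (33 list members), with 2663 at an unadjusted p under 0.05.

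Among the list members that the naming rule covers, 8 of 6041 values changed sign where either fit made a call. Furin's density was 0.95 in experiment 1 alone. Relative labelling with at least 2 conversions was -0.24 for Casp8, -0.62 for Chuk and -1.04 for Nfkb1, and with background subtracted it was -1.32 for Casp8, -1.15 for Chuk, -2.07 for Map3k7 and -1.62 for Nfkb1. Of the others, 187 lost their call and 147 gained one. Depth limits Tnf most in input of experiment 1, where 227 to 452 reads were counted in a library.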
